A study of Mus musculus with 45 samples.

Results

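Type I interferons switch on a shared set of effector genes that act against viruses, and 40 of these genes were followed here in microglia and brain tissue of mice given inflammatory stimuli. The genes were taken from a fixed list of symbols, which had been chosen with earlier results of these data known. They were matched to gene identifiers through the mouse GENCODE annotation. All 40 of them were present in each of the count tables, out of 56039 genes in all. The shares of all genes given beside the members' counts are therefore a background and not a test of the set. Microglia, the resident macrophages of the brain, had been sorted from organotypic brain slices of C57BL/6 pups of postnatal day 1 to 4, which had been kept in culture for 2 weeks and then exposed for 24 h to medium alone (n = 9), to 50 ng/mL TNF (n = 11) or to 20 ng/mL GM-CSF (n = 9). In a second experiment microglia were sorted from C57BL/6 mice of 10 to 15 weeks, 24 h after an intraperitoneal injection of PBS (n = 4) or of 1 mg/kg LPS (n = 4), a component of the bacterial cell wall. Whole brain tissue was sequenced from C57BL/6 mice of the same age range. They were untreated (n = 4) or had received the same dose of LPS 24 h earlier (n = 4). The tissue controls had therefore not been injected, unlike the PBS mice. The titles of the adult microglia and brain tissue samples carry WT, for wild type. A slice library pooled 3 slices per the labels, and 2 to 3 per the study's methods, and nothing in the labels says which libraries shared a brain. The slices contain neonatal microglia that had been through 2 weeks of culture, and the in vivo mice were female per the methods, so age, culture and sex cannot be told apart between the systems.

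Type I interferons bind a receptor whose kinases activate transcription factors, and these bind a DNA element, the interferon-stimulated response element (ISRE), in front of its target genes. The products of these genes bind foreign RNA, block translation, degrade nucleic acids, trap virus particles at the membrane or attach the ubiquitin-like protein ISG15 to other proteins. In microglia the same genes are known as the signature of an interferon-responsive state that appears with infection, injury and ageing.

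Some of the members share more than the list that named them. RefSeq (GRCm38.p6) provided promoter windows, from 250 bases before to 50 bases after the start of the transcript, for 30 of the 40 genes. The core of the ISRE, GAAANNGAAA on either strand, was found in the windows of 13 of these 30 genes (43.3%), against 3.99% of all genes with a window. The GAS element TTCNNNGAA was found in 20.0% of the 30 genes and in 9.55% of all genes, and the NF-kB consensus in 6.67% and 5.14%. A match only describes the letters, and matches of the different motifs were counted separately. The 250 bases before the start are shown for *Isg15* and 3 of the 4 IFIT genes of chromosome 19. They are also shown for the neighbouring pair *Rsad2* and *Cmpk2* of chromosome 12. These windows belong to some of the genes with the largest responses below and differ in these letters. They are read 5′ to 3′ along each gene from chr4:156200819-156201068 (minus strand), chr19:34640639-34640888 (plus), chr19:34583279-34583528 (plus), chr19:34607707-34607956 (plus), chr12:26456453-26456702 (minus) and chr12:26468965-26469214 (plus), and capitals mark the ISRE core.
Isg15: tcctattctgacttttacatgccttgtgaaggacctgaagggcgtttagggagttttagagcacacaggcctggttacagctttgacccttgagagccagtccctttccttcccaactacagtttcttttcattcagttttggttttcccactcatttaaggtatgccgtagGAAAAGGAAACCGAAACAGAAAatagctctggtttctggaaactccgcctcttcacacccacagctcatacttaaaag
Ifit1: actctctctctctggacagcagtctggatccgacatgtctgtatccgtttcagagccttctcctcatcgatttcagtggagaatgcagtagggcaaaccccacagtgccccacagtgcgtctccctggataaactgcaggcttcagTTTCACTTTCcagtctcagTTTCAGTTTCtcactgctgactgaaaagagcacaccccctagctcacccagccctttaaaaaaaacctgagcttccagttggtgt
Ifit3: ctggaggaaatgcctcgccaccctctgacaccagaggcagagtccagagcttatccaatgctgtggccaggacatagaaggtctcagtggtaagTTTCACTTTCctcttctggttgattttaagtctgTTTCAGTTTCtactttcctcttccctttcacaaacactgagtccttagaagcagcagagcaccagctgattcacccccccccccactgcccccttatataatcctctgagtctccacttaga
Ifit3b: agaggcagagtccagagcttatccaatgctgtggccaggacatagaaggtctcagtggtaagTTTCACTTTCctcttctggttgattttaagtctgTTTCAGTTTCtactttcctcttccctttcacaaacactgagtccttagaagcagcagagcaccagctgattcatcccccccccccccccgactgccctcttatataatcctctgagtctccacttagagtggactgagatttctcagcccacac
Rsad2: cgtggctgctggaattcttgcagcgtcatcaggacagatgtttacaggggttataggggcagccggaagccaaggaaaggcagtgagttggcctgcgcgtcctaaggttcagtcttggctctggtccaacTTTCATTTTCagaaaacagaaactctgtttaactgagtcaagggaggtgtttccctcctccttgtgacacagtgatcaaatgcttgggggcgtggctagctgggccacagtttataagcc
Cmpk2: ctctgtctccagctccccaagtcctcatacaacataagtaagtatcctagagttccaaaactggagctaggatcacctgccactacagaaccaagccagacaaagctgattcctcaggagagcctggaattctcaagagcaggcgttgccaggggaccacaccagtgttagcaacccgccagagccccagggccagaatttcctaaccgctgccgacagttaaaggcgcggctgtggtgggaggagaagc

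*Isg15* had 3 overlapping matches, which began at positions -78, -72 and -66 from the start of the transcript. *Ifit1* had matches at -104 and -85 and *Ifit3* at -156 and -122. *Ifit3b*, a near-identical copy of *Ifit3*, had the same letters at -188 and -154. *Rsad2* had 1 match, at -120, whereas none was found in this window of *Cmpk2*. The fourth IFIT gene, *Ifit2*, had 0 matches in its RefSeq windows and is not shown, although it had the largest rise of the IFIT genes with TNF. Whether a match goes with a larger response was not tested.

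Depth per library was 5973364 to 9165485 counts for slice microglia, 11391577 to 14216034 counts for adult microglia and 8199881 to 10368603 counts for brain tissue. Levels are given as CPM, that is, counts relative to the TMM-scaled library size. A gene was called changed when edgeR's quasi-likelihood test gave it a p under 0.05 after adjustment over all genes tested and its level differed by over 1.5-fold. Per the study, the in vivo libraries came from separate mice, and the slice libraries from slices that were treated separately and pooled, in several experiments. The labels do not tie a library to an animal or an experiment, and the p-values measure the spread between libraries. The summed CPM of 10 microglia markers was 24100 to 33200 in medium, 62500 to 69100 in PBS microglia and 331 to 374 in untreated brain tissue. In the slices it was 12900 to 16600 with TNF and 17800 to 19700 with GM-CSF, below medium in both, and in LPS microglia 43900 to 49500, and the part of this shift in the members' values was not tested. T and NK cell markers summed to at most 2.17 CPM in any library of sorted microglia, with *Gzma* at 0 in all of them. Neutrophil markers reached 113 CPM in 1 TNF library, with *Ly6g* at 0 in all slice libraries. Border macrophage markers summed to 290 to 698 CPM in medium, 305 to 542 CPM with TNF and 301 to 862 CPM with GM-CSF. In PBS microglia they summed to 10.1 to 15.6 CPM. The part of such cells in the slice values was not tested. One adult library, LPS replicate 2, stood apart from the other 3 of its group in the members, and the main adult results are also given without it.

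**Figure D1:**
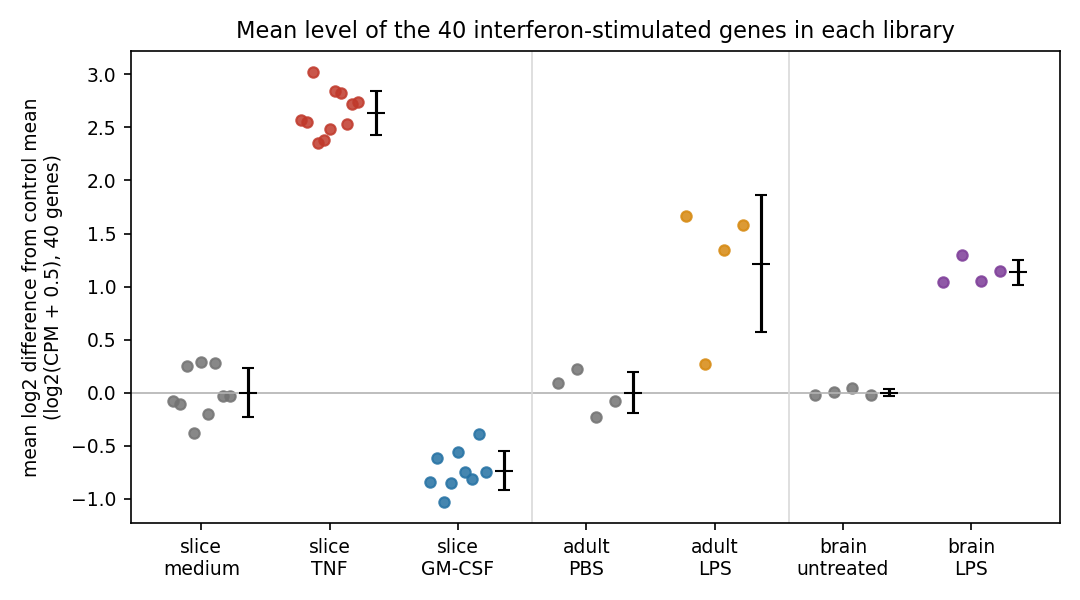
Mean log2 difference of the members from their control group mean, log2(CPM + 0.5), for each library (points), by group. The 11 TNF libraries sit between 2.35 and 3.02 and the 9 GM-CSF libraries between -1.03 and -0.39, on opposite sides of medium, and 1 of the 4 adult LPS libraries (0.27) lies near the PBS libraries.

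The libraries separated by treatment when the members were averaged. The mean log2 difference from medium ran from 2.35 to 3.02 with TNF and from -0.38 to 0.29 among the medium libraries themselves. With GM-CSF it ran from -1.03 to -0.39. The 3 slice groups did not overlap by this mean, but medium and GM-CSF nearly touched. Medium replicate 4 was at -0.384 and GM-CSF replicate 8 at -0.393. By the median of the members in place of the mean, both of these libraries were at -0.344. The slice titles carry a code (1A, 1B, 2A or 2B) whose meaning the labels do not give. Within every code the GM-CSF libraries lay below and the TNF libraries above the medium libraries of that code, of which 1B had only 1. In brain tissue the mean difference was 1.04 to 1.30 with LPS and -0.03 to 0.04 without. In adult microglia it was 1.66, 1.34 and 1.58 in LPS libraries 1, 3 and 4 and 0.27 in library 2, next to -0.23 to 0.22 with PBS.

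TNF raised nearly the whole set in slice microglia. Of the 40 genes, 39 were called higher than in medium and none lower, where 9.1% of the 11313 genes tested were called higher. The median log2 fold change of the members was 2.39, and that of all genes was -0.03. In 37 members every TNF library lay above every medium library, which 6.25% of all genes did. The exceptions were *Samd9l*, with 10 of 11 TNF libraries above, *Ifi27l2a*, with 2 of 11, and *Ifi27*, which moved the other way. The comparison addressed how microglia in slices respond to a defined inflammatory cytokine.

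The IFIT proteins, which bind foreign RNA and stop its translation, and the modifier ISG15 had some of the largest responses. *Isg15* was at 6.94 (lowest), 14.0 (median) and 22.3 CPM (highest) in medium and at 212, 278 and 424 CPM with TNF. The highest medium library stayed far below the lowest TNF library. The log2 fold change was 4.42 ± 0.19 (SE, edgeR adjusted p = 5.73e-20), or 21.4-fold. All 4 IFIT genes rose, by a median of 4.56, from 4.11 ± 0.35 for *Ifit3b* to 4.69 ± 0.25 for *Ifit2*. The enzymes that attach ISG15 rose less than the modifier. *Uba7*, the activating enzyme, increased by 1.20 ± 0.10, *Ube2l6*, the conjugating enzyme, by 1.84 ± 0.14 and *Herc6*, the main ligase in mice, by 2.40 ± 0.17 on the log2 scale. *Usp18*, the protease that removes ISG15 and also damps signalling at the receptor, rose by 4.33 ± 0.21.

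All 9 genes for directly antiviral proteins rose, with a median of 3.44. The largest change of any member was that of *Cmpk2*, a mitochondrial nucleotide kinase, which had 1.31, 3.25 and 10.9 CPM in medium (lowest, median, highest) and 98.5, 150.5 and 189 CPM with TNF. Again the groups were well apart, and the log2 fold change was 5.04 ± 0.31 (edgeR adjusted p = 1.12e-14). Its neighbour *Rsad2*, which encodes viperin, an enzyme that makes a chain-terminating nucleotide, rose by 4.86 ± 0.30. *Eif2ak2*, which encodes the RNA-activated kinase PKR, rose least of this group, by 1.27 ± 0.15. *Mx1* and *Mx2* are dynamin-like GTPases, and *Mx2* is annotated as a polymorphic pseudogene. *Mx1* had 0 to 6.79 CPM in medium, with 2 of 9 libraries at 0, and 30.1 to 64.2 CPM with TNF. A count of 0 allowed up to 0.327 to 0.445 CPM in the medium libraries, from counting error only.

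The smallest p-value belonged to *Tor3a*, an ATPase of the endoplasmic reticulum, with 107, 141 and 185 CPM in medium and 505, 564 and 707 CPM with TNF. These values did not overlap, and the log2 fold change of 2.03 ± 0.09 (edgeR adjusted p = 4.04e-20) was of moderate size. *Phf11b*, a PHD finger protein gene with the near copy *Phf11d*, went from 13.4, 18.9 and 32.6 CPM to 164, 194 and 298 CPM (log2 fold change 3.34 ± 0.16, edgeR adjusted p = 8.71e-19). The other nuclear and TRIM genes rose as well (7 of 7, median 2.83). The 5 genes of ADP-ribosylation, the PARP enzymes and *Dtx3l*, the ligase that pairs with PARP9, rose by a median of 1.76. *Shisa5*, a gene for a membrane protein of the endoplasmic reticulum, had the smallest called change, from 713, 770 and 941 CPM to 1103, 1317 and 1531 CPM (log2 fold change 0.76 ± 0.06, edgeR adjusted p = 9.38e-13). It was also one of the most abundant members in medium. Per kilobase of exon, the highest mean levels in medium were those of *Shisa5* (239.8 CPM per kb), *Lgals9* (228.0) and *Lgals3bp* (213.6), and the lowest those of *Ifi44* (0.142) and *Helz2* (0.183). With TNF the highest was *Bst2* (664.5 CPM per kb), which encodes the virus-trapping protein tetherin, and *Isg15* reached 374.8.

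*Ifi27*, which encodes a small hydrophobic membrane protein, was the only member not called higher. It was at 45.2, 56.1 and 86.6 CPM in medium and at 30.9, 44.4 and 51.5 CPM with TNF. The values overlapped, with 7 of 11 TNF libraries below every medium library. The log2 fold change was -0.53 ± 0.13 (edgeR adjusted p = 0.000817), which is under the fold limit. Its neighbour and relative *Ifi27l2a* rose by 1.30 ± 0.27.

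**Figure D2:**
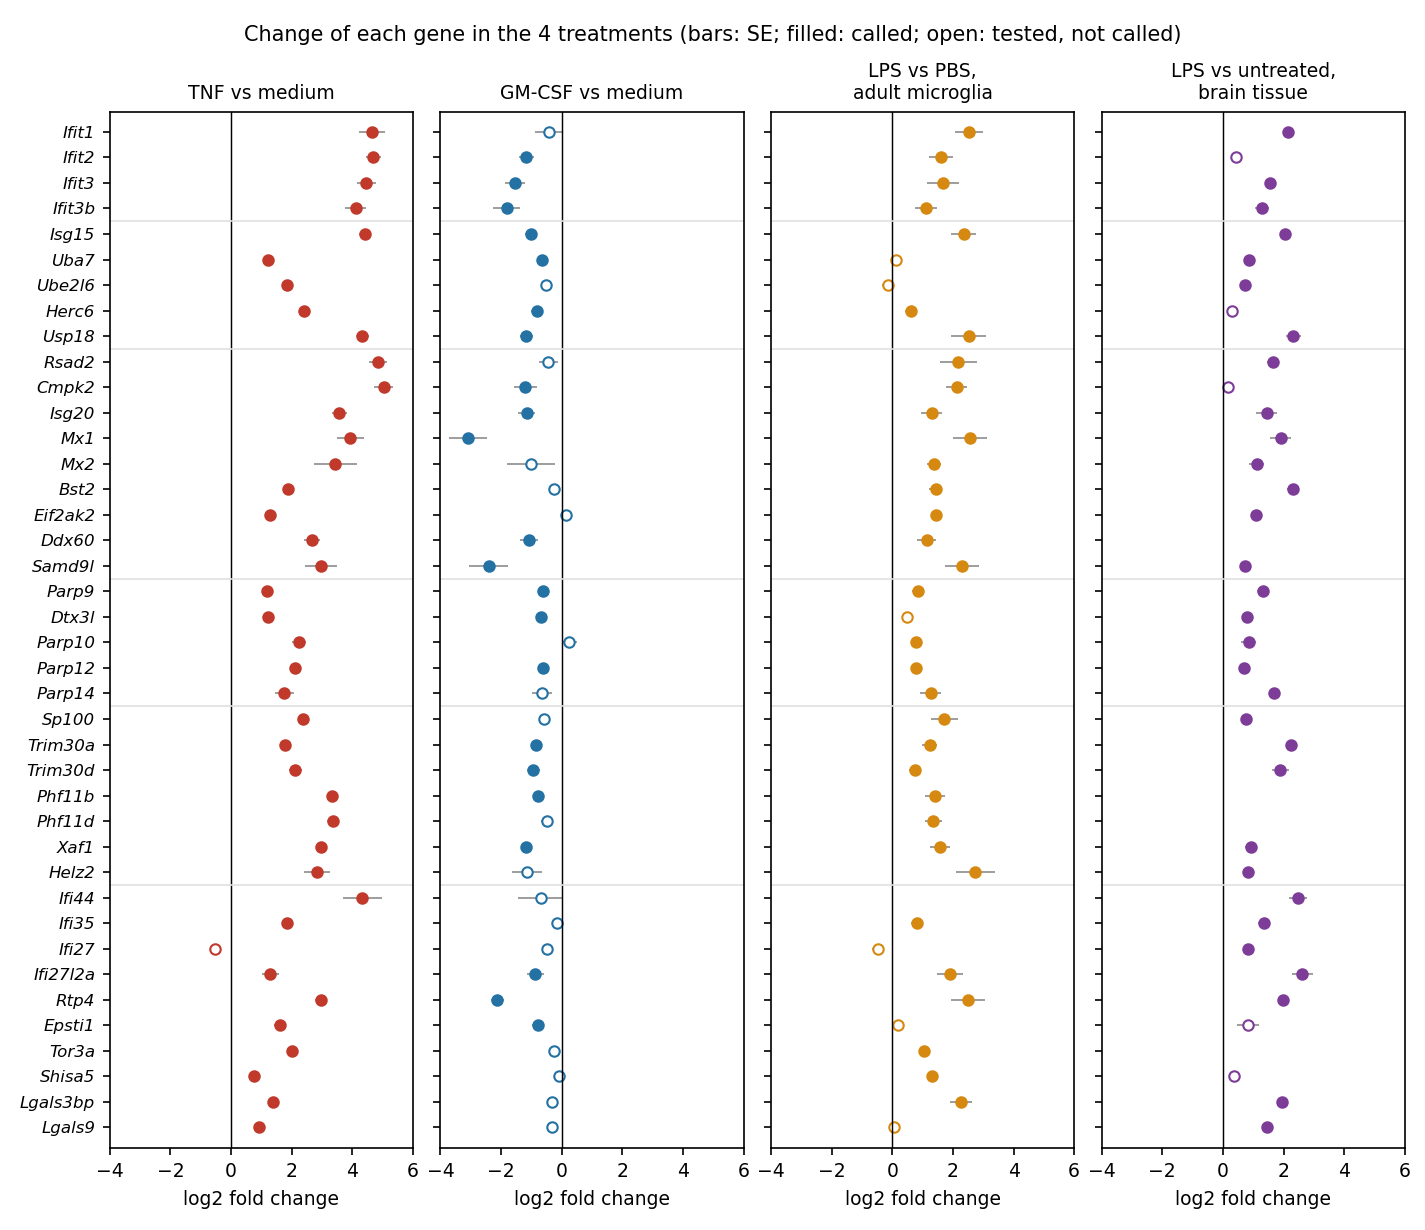
Log2 fold change of each of the 40 members under each treatment against its own control (points; bars, SE), with filled points for genes called changed. TNF values run from -0.53 (Ifi27) to 5.04 (Cmpk2), GM-CSF values from -3.09 (Mx1) to 0.26 (Parp10), the LPS values in adult microglia from -0.48 (Ifi27) to 2.74 (Helz2) and those in brain tissue from 0.16 (Cmpk2) to 2.62 (Ifi27l2a).

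GM-CSF moved the set in the other direction. Of the 40 genes, 22 were called lower than in medium and none higher, where 5.96% of all genes were called lower and 4.84% higher. A further 6 had an adjusted p under 0.05 without passing the fold limit, so that 28 were lower by p alone. The median log2 fold change of the members was -0.74 (all genes, -0.04), and 38 of 40 values were negative. The exceptions were *Eif2ak2* (0.16 ± 0.16) and *Parp10* (0.26 ± 0.24). The fall was smaller than the rise with TNF and the libraries overlapped more: only *Uba7* and *Rtp4* had every GM-CSF library below every medium library, against 2.67% of all genes.

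The clearest fall was that of *Rtp4*, a chaperone for membrane receptors, which had 15.0, 22.9 and 45.4 CPM in medium and 1.601, 5.52 and 10.3 CPM with GM-CSF. No GM-CSF library reached the lowest medium library. The log2 fold change was -2.12 ± 0.23 (edgeR adjusted p = 7.9e-09). The annotated span of *Rtp4* overlaps *Masp1* on the opposite strand, and whether counting used strand is not given in the sources used here. *Xaf1*, a gene for a pro-apoptotic factor that binds XIAP, had 7.05, 14.1 and 24.7 CPM in medium and 3.97, 6.69 and 9.47 CPM with GM-CSF. The 2 ranges overlapped at their ends, with a log2 fold change of -1.17 ± 0.18 (edgeR adjusted p = 5.32e-06). *Trim30a*, a TRIM protein gene known for damping Toll-like receptor signalling, had 35.4, 53.1 and 79.8 CPM in medium and 21.1, 30.8 and 38.2 CPM with GM-CSF (log2 fold change -0.84 ± 0.14, edgeR adjusted p = 1.26e-05). Its relative *Trim30d* can share reads with it and changed by -0.93 ± 0.22.

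The largest fall in size was in a gene near the limit of detection. *Mx1* had 0, 3.47 and 6.79 CPM in medium (lowest, median, highest) and 0, 0.131 and 1.19 CPM with GM-CSF, with 202 counts over the 9 medium libraries and 24 over the 9 GM-CSF libraries. Libraries at 0 occurred in both groups, 2 in medium and 4 with GM-CSF. The log2 fold change was -3.09 ± 0.63 (edgeR adjusted p = 0.000255). *Samd9l*, another gene of low counts, fell by 2.41 ± 0.65 on the log2 scale. The smallest called fall was that of *Parp12*, a mono-ADP-ribosyltransferase that responds to stress and infection, with 33.4, 50.1 and 109 CPM in medium and 27.9, 33.4 and 45.4 CPM with GM-CSF (-0.63 ± 0.17, edgeR adjusted p = 0.0049). Its highest medium library lay far above the rest of that group.

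By role, the number of members that fell, meaning that they were called lower, varied, and the difference between roles was not tested. Of the IFIT genes 3 of 4 fell (median -1.36), with *Ifit1* at -0.42 ± 0.47, and of ISG15 and its enzymes 4 of 5 fell (median -0.83). *Isg15* itself had 3.68, 6.23 and 10.2 CPM with GM-CSF, next to 6.94, 14.0 and 22.3 CPM in medium (-1.01 ± 0.20, edgeR adjusted p = 0.000165). The fifth of these genes, *Ube2l6*, changed by -0.52 ± 0.14, with an adjusted p of 0.00444 but a fold under the limit. *Uba7* went from 33.7, 40.7 and 44.2 CPM to 20.0, 24.3 and 33.5 CPM (-0.65 ± 0.11, edgeR adjusted p = 1.97e-05). Of the direct antiviral genes 5 of 9 fell, which were *Cmpk2*, *Isg20*, *Mx1*, *Ddx60* and *Samd9l*, whereas *Rsad2* (-0.44 ± 0.31), *Bst2* (-0.25 ± 0.09), *Mx2* (-1.01 ± 0.80) and *Eif2ak2* did not pass. Of the ADP-ribosylation genes 3 of 5 fell, among them *Parp9* and *Dtx3l*, whose annotated spans overlap on opposite strands. Of the nuclear, TRIM and PHF11 genes 4 of 7 fell. Of the remaining 10 members only *Rtp4*, *Ifi27l2a* and *Epsti1* were called lower, but all 10 values were negative and 7 had an adjusted p under 0.05. *Ifi27*, *Tor3a*, *Lgals3bp* and *Lgals9* were lower by p alone. Together with *Shisa5*, *Ifi35* and *Ifi44* they ranged from -0.70 to -0.07.

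The count under GM-CSF depended on the test and on the libraries used. It was 22 with the replicate number as a block, 22 with the title code as a covariate, 23 with DESeq2, 20 without a filter on low counts and 18 with limma-voom, where *Cmpk2*, *Isg20*, *Mx1*, *Samd9l* and *Parp12* were no longer called. With the libraries of codes 1A and 1B alone it was 15, and with 2A and 2B alone 16.

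Placed side by side, 22 genes were called higher with TNF and lower with GM-CSF (0.804% of all genes were), 17 were higher with TNF and not called with GM-CSF, and *Ifi27* was called in neither. Both comparisons use the same 9 medium libraries, so these counts are not independent. The direct comparison of TNF with GM-CSF does not use medium. It called 39 members higher with TNF, where 8.25% of all genes were called higher and 7.96% lower, and no member lower, and the median log2 fold change was 3.14 (all genes, -0.02). In all 39 every TNF library lay above every GM-CSF library (5.3% of all genes). The values ran from 0.83 ± 0.06 for *Shisa5* (edgeR adjusted p = 1.27e-13) to 7.02 ± 0.57 for *Mx1* (edgeR adjusted p = 5.76e-12), and *Isg15* (5.43 ± 0.20), *Tor3a* (2.27 ± 0.09) and *Phf11b* (4.13 ± 0.17) had the smallest p-values. *Ifi27* differed by -0.03 ± 0.13 (edgeR adjusted p = 0.877), with 30.9 to 51.5 CPM in TNF and 29.6 to 62.8 CPM in GM-CSF libraries.

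**Figure D3:**
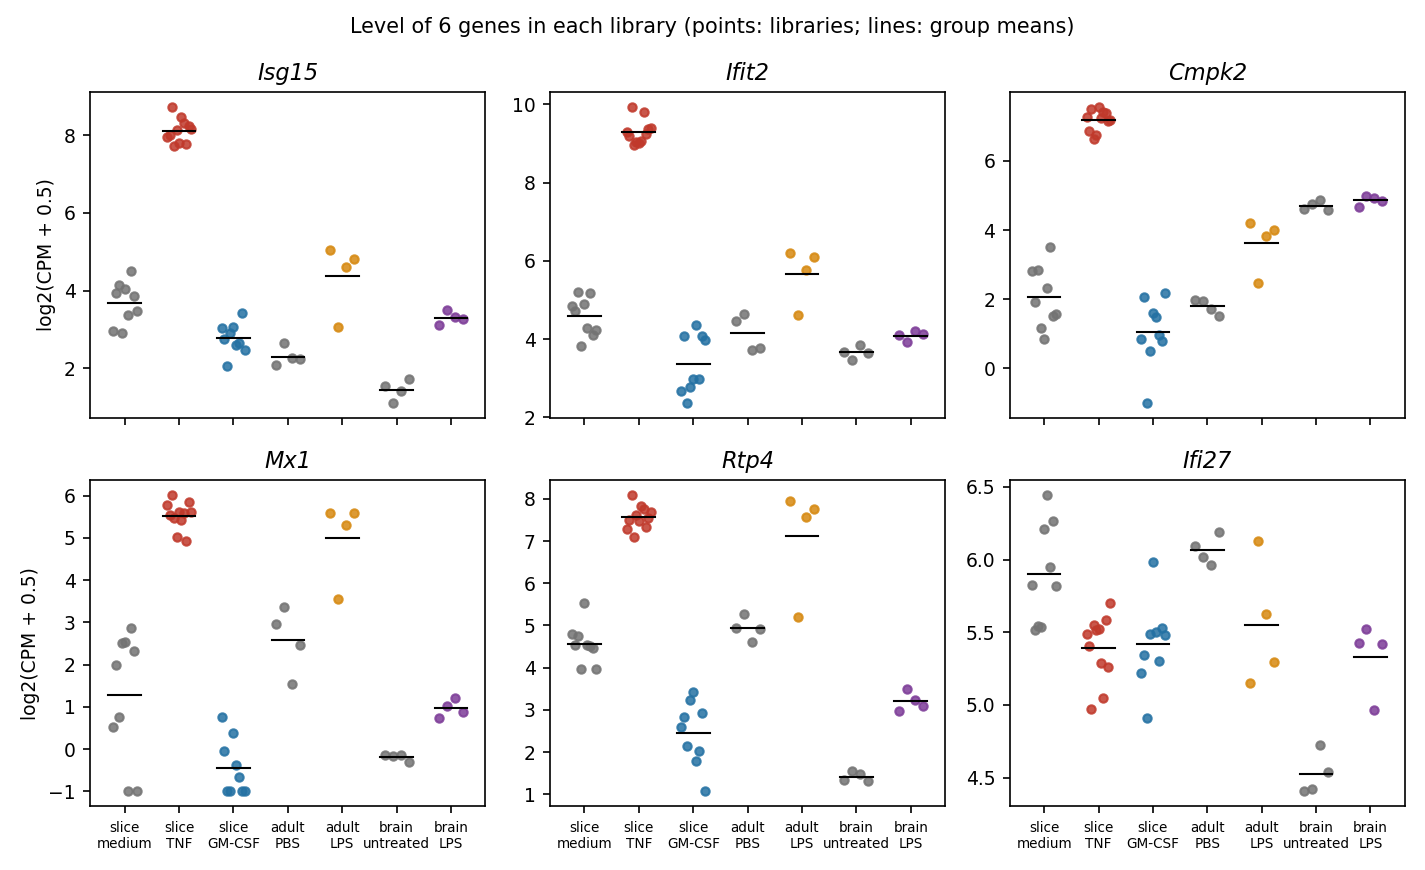
Level of 6 members in each library, as log2(CPM + 0.5), by group (points, libraries; lines, group means). In Isg15, Ifit2, Cmpk2, Mx1 and Rtp4 the TNF libraries form a band above medium and GM-CSF. Cmpk2 overlaps between untreated and LPS brain tissue, and Ifi27 is lower with TNF and GM-CSF but higher in LPS brain tissue.

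The genes above the effectors in the pathway moved in part with them. Messages of the interferons themselves were hardly detected: none of 21 interferon genes passed the filter in any table, and their counts summed to 8 in medium, 12 with TNF and 3 with GM-CSF over all libraries of a group. Among transcription factors of the pathway, those that rose with TNF included *Irf7*, the factor that amplifies interferon production, at 4.49 ± 0.23, *Stat2* at 2.30 ± 0.14, *Irf1* at 1.35 ± 0.14 and *Irf9* at 0.77 ± 0.09 on the log2 scale. With GM-CSF *Irf7* fell by 1.22 ± 0.24, *Irf1* by 0.78 ± 0.15 and *Stat2* by 0.78 ± 0.15. Among 5 tested receptor genes *Ifnar1* rose (0.68 ± 0.10) and *Ifngr1* fell (-0.73 ± 0.07) with TNF, while *Ifngr1* (-0.78 ± 0.07) and *Il10rb* (-0.62 ± 0.07) fell with GM-CSF. None of 3 kinase genes was called in either comparison with medium. Of 6 negative regulators *Socs1* (1.68 ± 0.29) and *Socs3* (1.54 ± 0.14) rose with TNF and none was called with GM-CSF. The highest value of these regulators with GM-CSF was 0.34, for *Ptpn2*. This differs from the study, which names *Socs3* among the most significant genes raised by GM-CSF, and the reason was not tested.

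Other interferon-induced families did not all fall with GM-CSF. Of 7 tested OAS genes, the sensors that activate RNase L, 7 rose with TNF, and with GM-CSF 3 fell and *Oas2* rose (4.06 ± 1.38, edgeR adjusted p = 0.00499). Of 8 tested guanylate-binding protein genes 7 rose with TNF, and 5 rose with GM-CSF and none fell, among them *Gbp7* (4.01 ± 0.28, edgeR adjusted p = 5.87e-13). Of 5 immunity-related GTPase genes 5 rose with TNF and 2 fell with GM-CSF, and of 10 RNA and DNA sensor genes 10 rose with TNF and 6 fell with GM-CSF. The difference between the families was not tested.

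In adult microglia LPS raised most of the set, with 1 library that responded far less in these genes. Of 39 tested members 33 were called higher than with PBS and none lower, where 14.4% of the 12987 genes tested were called higher and 27.4% in either direction. The median log2 fold change was 1.35 (all genes, 0.01). Without LPS replicate 2, which leaves 3 LPS libraries, 35 of 40 members were called higher (15.7% of all genes) and *Ifi27* lower, and the median was 1.57. *Ifi44* had too few counts to be tested in the full set (0.361 to 1.15 CPM with PBS, 0.514 to 3.61 CPM with LPS) and was higher by 1.84 without that library.

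*Isg15* shows the pattern. It was at 3.73, 5.75, 4.27 and 4.18 CPM in the PBS libraries and at 32.6, 7.79, 23.9 and 27.8 CPM in LPS libraries 1 to 4. All LPS libraries lay above PBS, library 2 by little. The log2 fold change was 2.36 ± 0.41 (edgeR adjusted p = 0.00157), and 2.65 without library 2. *Rtp4* was at 23.8 to 37.9 CPM with PBS and at 246.7, 36.1, 190.2 and 217 CPM with LPS, so that library 2 lay inside the PBS range. LPS library 2 was the lowest of the 4 LPS libraries for 37 of the 39 tested members (94.9%), for 62.6% of the 1839 other genes called higher with LPS and for 32.1% of all 12987 genes. The median rise of the members was 0.26 in library 2 and 1.5 in the other 3, while for the other genes called higher it was 0.74 and 0.97. These other genes were called in a fit that included library 2, which favours genes that rose in it. The members were taken whether called or not, so the sets were not chosen alike.

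The same library did carry other marks of LPS. *Socs3*, a feedback inhibitor of cytokine receptors, was at 350.3 CPM in library 2, at 376.1 to 430.4 CPM in the other LPS libraries and at 34.1 to 39.8 CPM with PBS. *Gbp7* was at 259.4 CPM in library 2, at 281.4 to 298.3 CPM in the others and at 81.0 to 96.8 CPM with PBS. *Irf7* by contrast was at 26.4 CPM in library 2, at 110.7 to 137.6 CPM in the others and at 11.4 to 22.1 CPM with PBS. Library 2 had the lowest total of the adult libraries (11391577 counts) and 0.696% of its counts on mitochondrial genes, against 0.58% to 0.667% in the other LPS libraries and 0.409% to 0.465% with PBS. These 3 genes were chosen after their values were seen, and the part of depth and RNA quality in the difference was not tested.

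**Figure D4:**
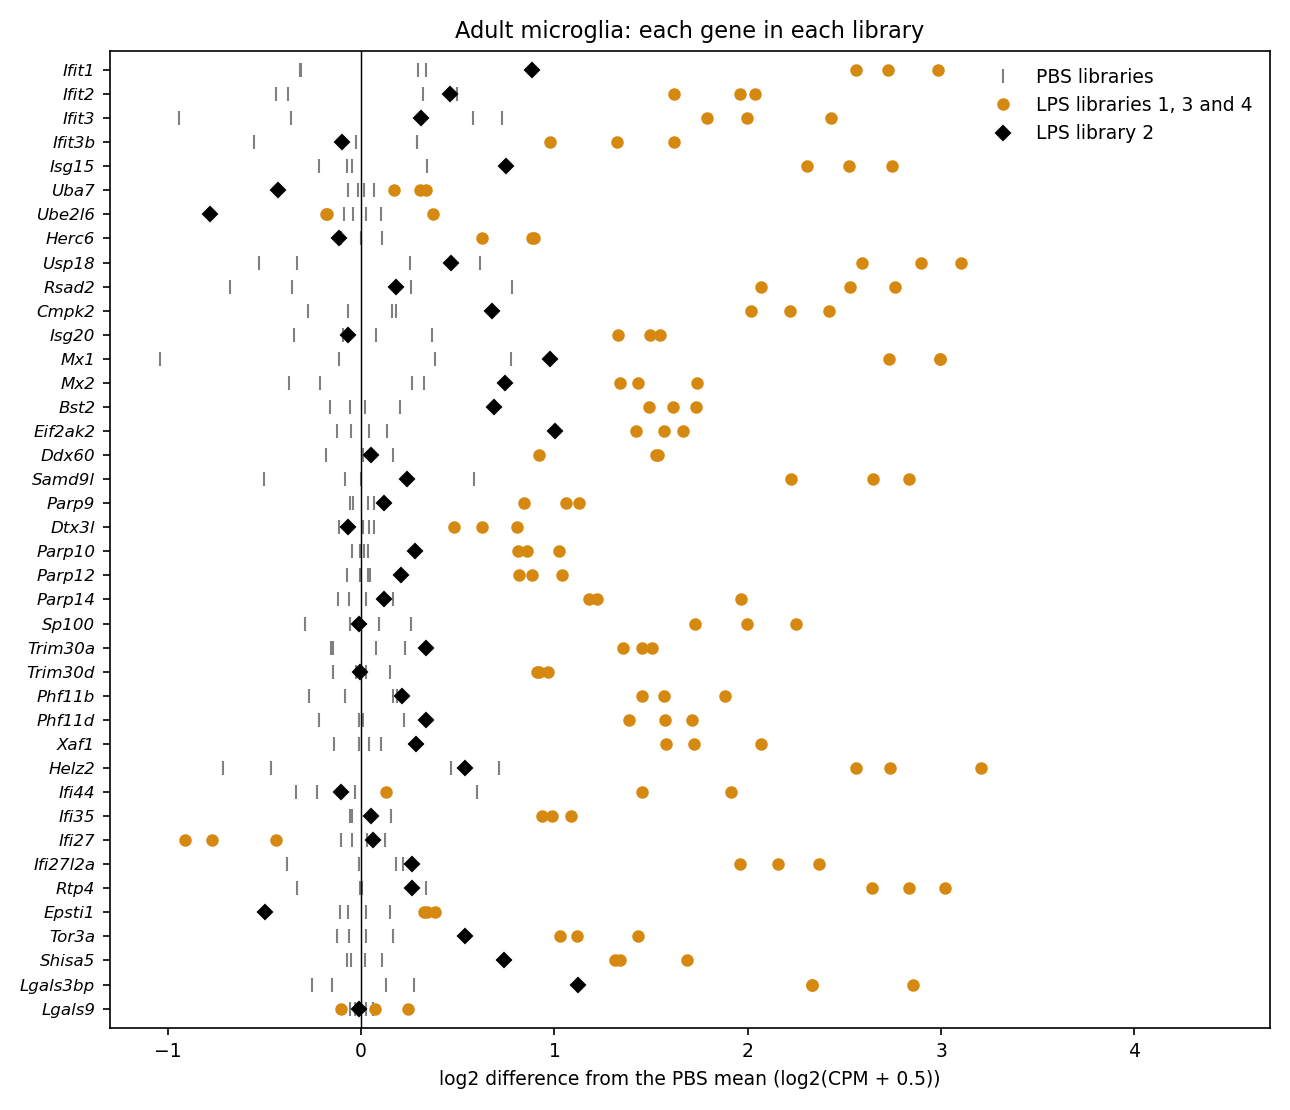
Log2 difference of each of the 40 members from its PBS mean, log2(CPM + 0.5), in every adult library (bars, PBS libraries; orange points, LPS libraries 1, 3 and 4; black diamonds, LPS library 2). The diamonds lie left of the orange points for 37 of the 39 tested members. For several members, such as Rtp4, Sp100 and Trim30d, they lie among the PBS libraries. In 18 of the 39 all LPS libraries lie right of every PBS library.

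Genes with the smallest p-values were those in which library 2 also rose. *Eif2ak2* was at 26.7, 28.5, 23.8 and 24.9 CPM with PBS and at 77.7, 52.4, 70.3 and 83.4 CPM with LPS, apart in every library (log2 fold change 1.45 ± 0.13, edgeR adjusted p = 5.3e-06, and 1.57 without library 2). *Shisa5* was at 254.0 to 288 CPM with PBS and at 861, 447, 677 and 665 CPM with LPS (1.31 ± 0.17, edgeR adjusted p = 0.000159, and 1.46 without it). *Mx2* was at 4.59 to 7.75 CPM with PBS and at 21.5, 10.5, 17.3 and 16.2 CPM with LPS (1.39 ± 0.23, edgeR adjusted p = 0.00042, and 1.55 without it). In 18 members all LPS libraries lay above all PBS libraries, against 24.1% of all genes, and without library 2 in 36 of 39 (29.3% of all genes).

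The largest rise was that of *Helz2*, a helicase-domain coactivator gene, with 2.58, 0.862, 0.644 and 2.09 CPM with PBS and 12.03, 2.23, 10.6 and 16.9 CPM with LPS. Library 2 overlapped PBS, and the log2 fold change was 2.74 ± 0.65 (edgeR adjusted p = 0.00771) and 3.07 without it. The smallest called rise was that of *Herc6*, at 36.5 to 42.4 CPM with PBS and at 73.5, 36.3, 60.9 and 73.1 CPM with LPS (0.63 ± 0.20, edgeR adjusted p = 0.0233, and 0.81 without library 2). By role, all 4 IFIT genes (median 1.64), all 9 direct antiviral genes (1.45) and all 7 nuclear, TRIM and PHF11 genes (1.41) rose, and without library 2 the same counts rose with medians of 1.91, 1.62 and 1.66. Of the ISG15 genes 3 of 5 rose with and without it, and of the ADP-ribosylation genes 4 of 5, and 5 of 5 without it, when *Dtx3l* (0.50 ± 0.16) also passed, at 0.65.

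The members not called with LPS were *Uba7*, *Ube2l6*, *Dtx3l*, *Ifi27*, *Epsti1* and *Lgals9*. *Ube2l6* changed by -0.14 (edgeR adjusted p = 0.588), and by 0.03 without library 2. Of its 4 LPS libraries 3 lay below every PBS library and 1 above. *Epsti1* changed by 0.18 (edgeR adjusted p = 0.403), and by 0.36 without library 2. Of its 4 LPS libraries 3 lay above every PBS library and 1 below. *Uba7* was at 255.3 to 281 CPM with PBS and at 338, 198.5, 301 and 331 CPM with LPS (0.13 ± 0.14, and 0.27 without library 2). *Lgals9*, which encodes galectin-9, was at 326 to 354 CPM with PBS and at 401, 337, 356 and 316 CPM with LPS (0.06 ± 0.08, and 0.08 without it). *Ifi27* was at 67.9, 64.2, 61.9 and 72.5 CPM with PBS and at 35.1, 69.4, 48.9 and 38.7 CPM with LPS. Libraries 1, 3 and 4 lay below all PBS libraries and library 2 among them, and the log2 fold change was -0.48 ± 0.19 (edgeR adjusted p = 0.0639) with it and -0.70 (adjusted p = 0.000102, called lower) without it.

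Among the transcription factors the following rose with LPS in adult microglia, both with and without library 2: *Irf7* (2.58 ± 0.53, and 2.90 without it), *Stat2* (1.54 ± 0.25, and 1.76) and *Irf9* (0.77 ± 0.13, and 0.89). No receptor or kinase gene was called. Among negative regulators *Socs3* rose, by 3.40 ± 0.09 and by 3.45 without library 2. Counts over the 21 interferon genes summed to 13 with PBS and 6 with LPS. In the other families 6 of 8 OAS genes (7 without library 2), 6 of 8 guanylate-binding protein genes and 4 of 5 immunity-related GTPase genes rose, the last pair of counts being equal without that library. Among markers of other cells, those of border macrophages summed to 10.1 to 15.6 CPM with PBS and 27.3 to 44.5 CPM with LPS, with none of 6 at 0 in every library. Astrocyte markers went from 255.0 to 280.0 CPM to 146 to 183 CPM, oligodendrocyte markers from 178 to 202 CPM to 136 to 156 CPM, and endothelial markers from 40.7 to 49.7 CPM to 15.0 to 17.4 CPM, with *Cldn5* at 0 in all adult libraries. Markers of neutrophils fell from 40.6 to 83.6 CPM to 1.61 to 8.31 CPM, with *Retnlg* and *Ly6g* at 0 with LPS, and monocyte markers went from 11.1 to 15.4 CPM to 4.22 to 6.78 CPM. Their part in the members' values was not tested.

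In whole brain tissue LPS raised most of the set as well, from low levels. Of 36 tested members 31 were called higher and none lower, where 2.63% of the 15083 genes tested were called higher, 0.55% lower and 3.18% in either direction. The median log2 fold change was 1.30 (all genes, 0.0028). In 34 of all 40 members, tested or not, every LPS library lay above every untreated library. These include *Ddx60* and *Phf11d*, which had too few counts to be tested. Of the genes tested, 9.09% were separated in this way. In bulk tissue, more or fewer cells of a type and more or less RNA per cell cannot be told apart. The libraries of this experiment were the most alike, with a biological coefficient of variation of 0.0672 against 0.137 in adult and 0.281 in slice microglia.

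The smallest p-value was that of *Trim30a*, at 2.21, 2.24, 1.86 and 2.82 CPM in untreated and at 11.2, 11.1, 10.6 and 10.3 CPM in LPS tissue. The LPS values were nearly equal to each other and far from the controls (log2 fold change 2.24 ± 0.15, edgeR adjusted p = 2.01e-07). *Ifit3* was at 10.4, 10.0, 7.35 and 9.51 CPM in untreated and at 23.1, 30.1, 28.2 and 27.3 CPM in LPS tissue (1.54 ± 0.11, edgeR adjusted p = 4.37e-07). *Lgals3bp*, a secreted glycoprotein that binds galectins, was at 15.9, 20.0, 21.2 and 17.0 CPM and at 59.3, 77.6, 70.6 and 80.1 CPM (1.95 ± 0.11, edgeR adjusted p = 7.1e-07). The largest rise was that of *Ifi27l2a*, at 0.503, 0.680, 1.04 and 0.627 CPM in untreated and 4.11, 7.19, 2.90 and 3.59 CPM in LPS tissue (2.62 ± 0.34, edgeR adjusted p = 0.000121). The smallest called rise was that of *Parp12*, at 9.93 to 12.2 CPM and 16.3 to 21.8 CPM (0.70 ± 0.11, edgeR adjusted p = 0.000637). *Isg15* rose from 1.65 to 2.82 CPM to 8.23 to 10.7 CPM (2.05 ± 0.18, edgeR adjusted p = 1.85e-06).

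Of the 5 tested members that were not called, *Cmpk2* stood out by its level. It was at 23.7, 26.3, 28.8 and 23.5 CPM in untreated and at 24.9, 31.2, 30.1 and 28.4 CPM in LPS tissue, and only 2 of 4 LPS libraries exceeded all controls (0.16 ± 0.09, edgeR adjusted p = 0.289). Untreated brain tissue had more *Cmpk2* (in CPM) than PBS microglia, at 2.38 to 3.45 CPM, though the tables were normalized separately. *Ifit2* (0.45 ± 0.11) and *Shisa5* (0.38 ± 0.06) had adjusted p-values of 0.0125 and 0.000611 and folds under the limit. *Herc6* (0.30 ± 0.12) and *Epsti1* (0.82 ± 0.36) did not pass either. *Tor3a* had 0 counts in all 8 brain libraries, which allows at most 0.289 to 0.366 CPM in a library from counting error only. It was at 107 CPM or more in every slice library in medium, and at a mean of 36.63 CPM per kb in PBS microglia. Whether the counting of the brain libraries covered this gene was not tested. *Ddx60*, *Phf11b* and *Phf11d* had too few counts to be tested. *Uba7* (0.87 ± 0.13), *Ube2l6* (0.74 ± 0.14), *Dtx3l* (0.78 ± 0.13), *Lgals9* (1.45 ± 0.15) and *Ifi27* (0.83 ± 0.12), which were not called in adult microglia, rose in brain tissue.

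Transcription factors that rose in brain tissue included *Irf7* at 3.14 ± 0.16, *Irf9* at 1.06 ± 0.10, *Irf1* at 0.72 ± 0.17 and *Irf8* at 0.68, and *Stat2* at 0.40 ± 0.08 was under the fold limit. The 21 interferon genes had 3 counts in untreated and 2 in LPS tissue, and no receptor gene was called. Microglia markers summed to 331 to 374 CPM in untreated and 304 to 484 CPM in LPS tissue, endothelial markers to 169 to 185 CPM and 245 to 291 CPM, and neutrophil markers to 0.503 to 1.55 CPM and 3.16 to 7.97 CPM, with none of these markers at 0 in every library. Markers of border macrophages went from 5.43 to 7.86 CPM to 9.31 to 13.2 CPM, with *Mrc1* at 0 in all 8 brain libraries. Oligodendrocyte markers went from 6110 to 6690 CPM to 4670 to 5530 CPM. The LPS libraries were also shallower (8199881 to 9452494 counts) than the untreated ones (9641582 to 10368603). The part of these shifts in the members' values was not tested.

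The LPS effects in adult microglia and brain tissue were compared gene by gene with an interaction term. The joined libraries were filtered as one, so a gene with few counts in 1 experiment could still be tested. All 40 members were tested in this way, though only 35 were tested in both experiments alone. *Tor3a*, for example, had no counts in brain tissue. The difference was called for 8 members, 3 with a larger effect in microglia and 5 with a larger effect in tissue. Of all 16676 genes, 9.1% and 10.6% were called in these directions and 19.7% in either. The members' count was near this share, so a difference between the 2 effects was not particular to the set. *Cmpk2* differed most, by 1.96 ± 0.37 (edgeR adjusted p = 0.000555, and 2.21 without adult LPS library 2). *Helz2* differed by 1.89 ± 0.64 (2.21 without it) and *Shisa5* by 0.92 ± 0.19 (1.06 without it). The effect was larger in tissue for *Lgals9* (-1.41 ± 0.16, edgeR adjusted p = 2.09e-06), *Ifi27* (-1.32 ± 0.25, edgeR adjusted p = 0.000715), *Trim30d* (-1.16 ± 0.41), *Ube2l6* (-0.89 ± 0.26) and *Uba7* (-0.75 ± 0.22). Without library 2 these values were -1.39, -1.55, -0.98, -0.73 and -0.61 in the same order. The calls of *Helz2* and *Trim30d* were the least firm, as they were kept in 9 and 11 of 21 other settings, with adjusted p-values of up to 0.0834 and 0.129. In *Lgals9* the level was 316 to 401 CPM in all adult microglia, with or without LPS, and 4.62 to 6.11 CPM in untreated and 11.1 to 17.6 CPM in LPS tissue. In *Ifi27* the LPS libraries lay above the controls in tissue and 3 of 4 below them in microglia.

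Leaving out adult LPS library 2 moved this count from 8 to 15, and the share of all genes called from 19.7% to 21.8%. All of these 8 were still called, and *Ifit2* (1.39), *Samd9l* (1.88), *Sp100* (1.25), *Xaf1* (0.90) and *Rtp4* (0.83) were added with a larger effect in microglia, and *Trim30a* (-0.82) and *Bst2* (-0.70) with a larger effect in tissue. Tissue, library kit and sequencing differ between the 2 experiments together with the kind of control, PBS or no injection, and cannot be told apart. Across the 35 members tested in both, the 2 effects had Pearson's r of 0.391 and Spearman's rho of 0.373, given as a description over genes that share libraries, and 0.385 and 0.393 over 36 members without adult LPS library 2. Called higher in both were 25 of these members, where 1.48% of the 10913 genes tested in both were, and 27 without that library (1.58% of genes).

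**Figure D5:**
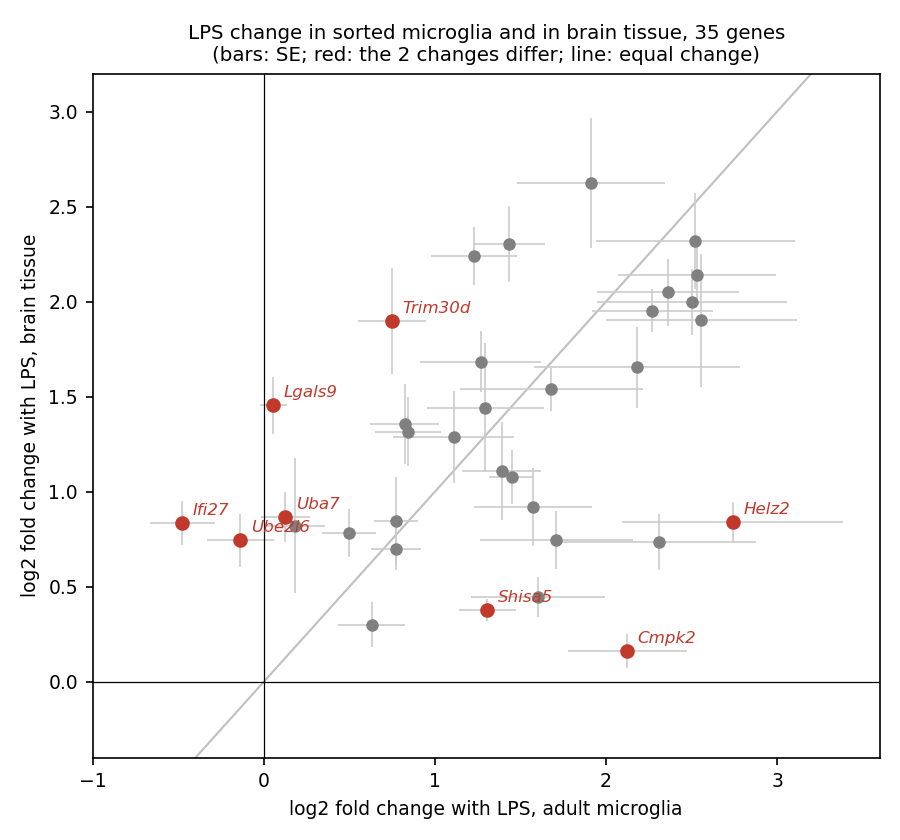
Log2 fold change with LPS in adult microglia (x axis) and in brain tissue (y axis) for the 35 members tested in both, with red points for those whose effects differed in the interaction test. Cmpk2, Helz2 and Shisa5 lie on the microglia side, and Lgals9, Ifi27, Trim30d, Ube2l6 and Uba7 on the tissue side.

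The rise with TNF in slices was larger than that with LPS in adult microglia for most members. The interaction of the TNF effect in slice microglia with the LPS effect in adult microglia was called for 26 members, 25 with a larger effect of TNF and 1, *Lgals3bp* (-0.83 ± 0.26, edgeR adjusted p = 0.0219), with a larger effect of LPS, where 5.84% and 8.27% of 13308 genes were called. The median difference of the members was 1.43 (all genes, -0.04). *Ifit2* had the smallest p-value and the largest difference (3.14 ± 0.36, edgeR adjusted p = 1.22e-07, and 2.88 without adult LPS library 2). The next smallest p-values were those of *Herc6* (1.82 ± 0.22, and 1.62 without it) and *Ube2l6* (2.03 ± 0.27, and 1.85 without it), and the smallest called difference was that of *Dtx3l* (0.77 ± 0.24). *Lgals3bp* was at 169.8 to 245 CPM with PBS and at 1466, 442, 1021 and 1021 CPM with LPS, and rose from 469 to 721 CPM to 1159 to 2191 CPM with TNF. By role, 4 of 4 IFIT genes, 5 of 5 ISG15 genes, 5 of 9 direct antiviral genes, 3 of 5 ADP-ribosylation genes, 4 of 7 nuclear, TRIM and PHF11 genes and 4 of the other 10 had a larger effect of TNF. Without adult LPS library 2 the counts were 23 and 2 and the median was 1.20, where 5.55% and 7.77% of all genes were called. *Mx2* and *Dtx3l* (0.61) were no longer called, so that 4 of 9 direct antiviral and 2 of 5 ADP-ribosylation genes remained and the other roles had the same counts, and *Shisa5* (-0.66) joined *Lgals3bp* (-1.08) on the side of LPS. Agent, dose, route, age and culture differ between these 2 effects and cannot be told apart.

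Across the 4 treatments, 25 members were called higher with TNF, with LPS in adult microglia and with LPS in brain tissue, and 14 of these were called lower with GM-CSF. Among the 9700 genes tested in slices, adult microglia and tissue, 1.11% and 0.351% were called so. Without adult LPS library 2 the counts were 27 and 15, and the shares of all genes 1.2% and 0.37%. *Ifi27* was called higher in brain tissue and in no other comparison with a control, and *Lgals9*, *Uba7*, *Ube2l6*, *Dtx3l* rose with TNF and in tissue but were not called with LPS in adult microglia. *Ifit2*, *Herc6*, *Cmpk2* and *Shisa5* rose with TNF and in adult microglia but were not called in tissue, and *Epsti1* was called higher with TNF and in neither LPS comparison. The difference between the 2 LPS effects was tested above and was called for some of these genes only.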

How the data were processed

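Gene-level tables of 3 experiments were used. For slice microglia the authors deposited counts of reads per gene, and the submitters' processing notes name STAR 2.7.0a, featureCounts, Subread 1.6.4 and the mm10 build. For adult microglia and brain tissue the authors deposited expected counts, which need not be whole, and the sources used here name neither their aligner and counting tool nor whether strand was used. Both kinds of microglia were made into libraries by template switching for low input and by tagmentation, brain tissue with an mRNA kit. Expected counts were rounded, which altered 70872 values of the adult and 69680 of the brain table and changed the totals by 0.000931% and 0.000929%. The 92 rows of the brain table that name no gene held 0 counts and were left out. Symbols came from GENCODE M21, and 0 columns lacked a sample.

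Tests were run in R 4.3.3 with edgeR 4.0.16 and its quasi-likelihood F test, with TMM scaling, robust estimation and edgeR's expression filter (minimum count 10, minimum total 15). P-values were adjusted by Benjamini and Hochberg over all genes tested, and SE are those of the log2 fold change. The 29 slice libraries were fitted together, adult and brain libraries each alone, and differences between effects as interactions in joined tables. A joined table was filtered as one, so a gene with few counts in 1 of its experiments could still be tested. CPM divide counts by the TMM-scaled library size. Between libraries of a group the chi-square per degree of freedom was at least 1.77 and 0 pairs were identical. No library was therefore treated as a copy of another, and each was counted once. Libraries that share a brain or an experiment could also pass this check, so it does not show that they are independent. The fits were tested on simulated data. Named genes were, per comparison, the 3 members with the smallest p-value, the largest and smallest called changes, and members not called or called in the opposite direction. The members and lists were chosen with earlier results of these data known. Alternatives were other scalings, filters and tools (DESeq2 1.42.0, limma-voom with limma 3.58.1), a replicate block, the title code as covariate or split, and leaving out each library. Sequences are those of RefSeq, GRCm38.p6. Intervals from counts, and the limit of 3 counts set for a count of 0, cover counting error only. Near-identical copies (*Ifit3* and *Ifit3b*, *Trim30a* and *Trim30d*, *Phf11b* and *Phf11d*, *Mx1* and *Mx2*) and overlapping genes (*Parp9* and *Dtx3l*, *Parp10* and *Plec*, *Uba7* and *Gm20661*, *Herc6* and *Gm45193*, *Rtp4* and *Masp1*) may share reads, so their counts are uncertain. Results for 1 gene of the pathway lists are not reported here.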

Additional observations from a re-analysis of the deposited data

Results flagged for a closer look

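In 18 of 240 tests of a member in a group of 4 to 10 samples, 1 library lay farther from the others of its group than Dixon's limit allows, which chance does in about 1 of 20. In medium these were replicate 5 for *Ifi27l2a* (170.6 CPM), *Ifi35* (52.83 CPM), *Parp12* (109.3 CPM) and *Rtp4* (45.38 CPM), replicate 6 for *Dtx3l* (46.79 CPM) and replicate 7 for *Ifi44* (3.601 CPM). With GM-CSF they were replicate 5 for *Bst2* (171.6 CPM), *Ifi27* (62.84 CPM), *Ifi27l2a* (79.65 CPM) and *Usp18* (16.14 CPM), and replicate 8 for *Ifit3b* (2.456 CPM). All of these slice libraries were the highest of their group. Replicate 5 of both groups carries the title code 2A and had the highest mean member difference in medium (0.289), while that of GM-CSF replicate 5 was -0.562.

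In adult microglia PBS replicate 2 was high for *Ifi35* (65.46 CPM), and LPS replicate 2 was low for *Epsti1* (19.69 CPM) and *Trim30d* (51.54 CPM). In brain tissue untreated replicate 1 was high for *Bst2* (4.121 CPM), untreated replicate 3 for *Parp9* (4.346 CPM), and LPS replicate 2 for *Herc6* (22.05 CPM) and *Parp9* (9.667 CPM).

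The LPS effect differed between adult microglia and brain tissue, by the interaction test of edgeR, in 8 of 40 members. This is near the 19.7% of all genes that were called. Only 35 of the 40 were tested in both experiments alone. It was larger in microglia for *Cmpk2* (1.956), *Helz2* (1.891) and *Shisa5* (0.918), and larger in tissue for *Uba7* (-0.752), *Ube2l6* (-0.891), *Trim30d* (-1.157), *Ifi27* (-1.318) and *Lgals9* (-1.409), all as differences of log2 fold changes.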

How the results depend on the processing

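No called change reversed its direction in any setting tried, while some values near 0 that were not called did change sign, such as *Shisa5* and *Ifi35* with GM-CSF. Members called ranged, over all settings but those that leave out a library or split the codes, from 38 to 40 for TNF, 18 to 28 for GM-CSF, 38 to 39 for TNF against GM-CSF, 22 to 34 for LPS in adult microglia, 27 to 34 for LPS in brain tissue, 6 to 8 for the difference of the LPS effects and 24 to 27 for that of TNF and LPS. With total counts in place of TMM *Ifi27* was called lower with TNF. Leaving out each library in turn gave 39 to 39, 20 to 24, 39 to 39, 30 to 36, 30 to 32, 6 to 15 and 24 to 27 in the same order. The 15 came from leaving out adult LPS replicate 2, and the cause was not tested. Same-numbered libraries had median correlations of their deviations of 0.0719 in slices, -0.00877 in adult microglia and 0.0259 in tissue. Other pairs had -0.021, -0.00604 and -0.0093 in the same order. Slice libraries of different groups that shared a title code had 0.0795, next to -0.0314 for other pairs. The main slice fit did not use the code. With the code as a covariate *Helz2* was added with GM-CSF and *Parp12* was no longer called. With the replicate number as a block, members called were 39, 22 and 39 in the slice comparisons, 29 in tissue and 22 in adult microglia, where *Ifit2*, *Ifit3*, *Usp18*, *Rsad2*, *Mx1*, *Ddx60*, *Samd9l*, *Parp14*, *Sp100*, *Trim30d* and *Rtp4* were not called. Depth limits *Mx1*, *Mx2*, *Ifi44*, *Samd9l* and *Helz2*, which were at or near 0 in some slice libraries.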
